A study of Mus musculus with 3 samples.

Results

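Long exonic parts are single stretches of exon of 1500 bases or more, measured here by reads in mouse skeletal muscle. They were chosen by length and read depth, as parts that belong to 1 annotated gene, are at least 1500 bases long and hold at least 100 inclusion plus exclusion reads in each of 3 libraries, with Ttn left out. Differences between libraries were not used. It took 5219 of 469293 parts, in 4620 genes. Of 16257 parts long enough, 11038 missed the read minimum, 7903 of them in all 3 libraries, and 847 missed it only in the homozygous library, against 257 only in wild type and 253 only in heterozygous. A further 8 parts of Ttn met the rule and were left out. Just inside the length limit were parts of Lpp, Ythdf3 and Lmod1, at 1500 bases, and just outside parts of Rnf114 and Eprs, at 1499. Just inside the read limit was a part of Poc5, whose lowest library held 100 reads, and just outside parts of Chdh and Kif3c, at 99.

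The libraries come from mice of 12 weeks of a line with the missense change I538T in Rbm20, made with CRISPR/Cas as a model of the human change I536T, and there is 1 library each of wild type, heterozygous and homozygous muscle. RBM20 is an RNA-binding protein that directs alternative splicing of titin and other muscle genes. Which muscle was taken, and from how many animals, was not stated in the labels. Values in threes stand for wild type first, then heterozygous, then homozygous. With 1 library per genotype nothing below has a replicate check, no p-value is given, and the 95% intervals hold counting error alone. Reads carry no molecular identifiers, so copies of 1 molecule count as separate reads and the intervals may be too narrow.

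Most long exons of vertebrate genes are last exons, which carry the end of the coding sequence and the 3′ untranslated region. The untranslated region binds microRNAs and RNA-binding proteins, and its length is set by the site at which the RNA is cut and given a poly(A) tail, downstream of a signal that usually reads AATAAA or ATTAAA. A gene can use several such sites, so a boundary between parts inside the untranslated region often marks the end of a shorter annotated transcript. A few proteins, among them the giant scaffold AHNAK and the muscle proteins XIRP2 and CMYA5, are coded mostly by 1 very long internal or last exon.

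The following sequences show the last 30 bases of 10 members that end an annotated transcript and that recur in the results, from GENCODE M21 transcripts on GRCm38, 5′ to 3′ on the strand of the gene. Capitals mark the poly(A) signal.
Rbm20: ggtttttAATAAAgagaatttgaaagcttg
Camk2g: accttgaagatatttAATAAAataaccttt
Stat5b: ttacAATAAAggcgtctccttgaaggacaa
Tnks2: gcaAATAAActtcccaaagctattaactaa
Ahnak: aagccaAATAAAgctctttattaaccctga
Klhl31: ccactgttAATAAAgctgcatataaaaaga
Insr: taaaatttggAATAAAttatcttgagacta
Igf1: attacATTAAAattaatcatgtttgattaa
Tgfbr2: ATTAAAgcttgcttcagatttggctcaaaa
Rhoj: tttgaAATAAAtttcaggatgtgatcaaaa
These ends hold 1 of the 2 signals because they were picked to show it. Over all members, 4558 (87.3%) end an annotated transcript. In the last 40 bases of 4553 such ends, read on the strand of the gene, AATAAA stood in 2383 (52.3%), ATTAAA without AATAAA in 557 (12.2%) and neither in 1613 (35.4%). In the 40 bases at the middle of the same members the shares were 1.82% and 1.67%. At the ends of all 52183 coding transcripts of the annotation they were 37.6% and 9.13%. The median distance from the start of the signal to the end was 23 bases. The signal AATAAA was most frequent in members of 3′ untranslated sequence (63.5% of 3112 ends) and least in members that belong to other transcripts of coding genes (16.2% of 543).

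By the annotation, 3232 members (61.9%) were mostly 3′ untranslated and 442 (8.47%) mostly coding. A further 845 (16.2%) lay only in other transcripts of coding genes, 739 of these in transcripts of the type retained intron, in which an intron is kept. Non-coding genes held 660 (12.6%), 301 of them single models that await experimental support. The remaining members were 25 of 5′ untranslated sequence and 15 not annotated in this release. The median length was 2405 bases, with a middle range from 1871 to 3298.5, and 490 genes had more than 1 member. Celf2, Mkln1, Dst, Eprs, Hook3 and Tcf4 had 5 each.

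Members held 12.6% of the bases of all single-gene parts, with Ttn left out. They held 7.94%, 7.58% and 6.52% of all inclusion reads, those of Ttn and of parts shared by several genes included. These shares have unlike totals and do not compare directly. A handful of members took most of the reads held by members. The 3 members on the mitochondrial genome, mt-Co1, mt-Rnr2 and mt-Nd5, took 2.45%, 2.37% and 1.69% of each library. The ribosomal RNA gene CT010467.1 took 0.909%, 0.756% and 0.630%. A 3′ untranslated part of the ubiquitin-conjugating enzyme gene Ube2c took 1.09%, 0.937% and 1.21%, and 592 of its 1633 bases lie in exons of Tnnc2, the fast troponin C gene. The labels do not state whether strand was used in counting, so reads of Ube2c and Tnnc2 cannot be told apart. The other 5214 members together held 3.49%, 3.51% and 2.99%. Overlap with an exon of another gene occurred in 799 members, and 1018 shared a run of 50 bases with another gene, so the values of such members are uncertain.

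The longest members were a 122802-base untranslated part of D10Wsu102e and the 93092-base imprinted antisense RNA Kcnq1ot1. Kcnq1ot1 held 5660, 4899 and 2714 inclusion reads, which is 23.6, 18.5 and 12.6 RPM (inclusion reads per 1000000 inclusion reads of the library). It was lowest in the homozygous library, and 1119 of its bases lie in exons of Kcnq1 and 4 other genes.

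To compare a long part with its own gene, inclusion reads per base, over the effective length used in the deposited PSI, were divided by those of the gene's other parts. This relative density is 1 where a part is covered as the rest of its gene, and it could be formed for 3923 members whose gene held at least 100 inclusion reads elsewhere in each library. The other 1296 members, 585 of them in genes with a single part, have levels only. The median relative density of members was 0.903, 0.870 and 0.835, and that of parts of other lengths was 1.48, 1.53 and 1.57. The median of members was below that of other parts in each library. It lay under 1 over all members, and at 1.34, 1.26 and 1.24 among the 1926 with at least 500 reads in each library.

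Members of other transcripts stood far below the 3′ untranslated and coding members, which lay close together. Members of 3′ untranslated sequence had medians of 1.33, 1.27 and 1.21, and coding members 1.15, 1.1 and 1.16. Members of other transcripts had medians of 0.0433, 0.0293 and 0.0309, so most introns that such transcripts keep were covered at a small share of the level of the gene. Among 3′ untranslated members the median was lower the longer the part. It was 1.70, 1.57 and 1.56 at 1500 to 1999 bases, and 0.822, 0.645 and 0.688 at 5000 bases or more.

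**Figure D1:**
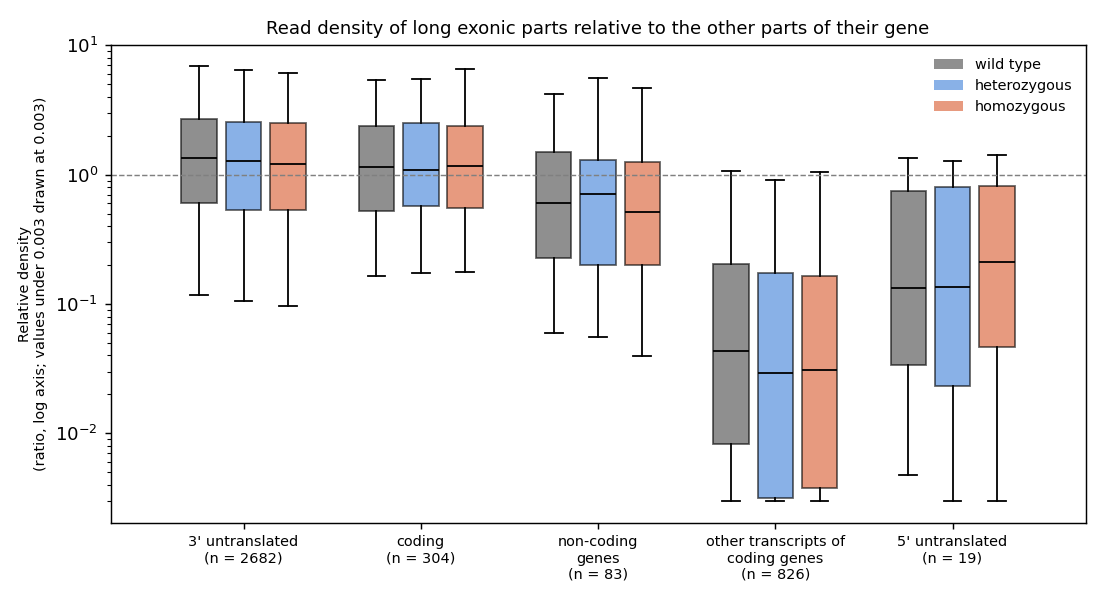
Relative density (ratio, log axis) of the members with a reference, by annotated class and library. Boxes span the quartiles of members with the median as a line, whiskers run from the 5th to the 95th percentile with the lowest values drawn at the floor named on the axis, and members of other transcripts sit below 3′ untranslated and coding ones in all 3 libraries.

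The targeted gene Rbm20 has 1 member, its last part (chromosome 19, 53865381 to 53867080), annotated here in a transcript of the nonsense-mediated decay type. It held 1350, 609 and 436 reads, while the other parts of the gene held 1760, 2257 and 205. Its share of the reads of Rbm20 was 43.4% (41.7 to 45.2), 21.2% (19.8 to 22.8) and 68.0% (64.3 to 71.5), with Wilson intervals. Relative density was 3.12, 1.1 and 8.65, so by this ratio the homozygous library was highest and the heterozygous lowest. In reads the homozygous library was lowest for the part and for the rest of the gene, and its ratio rests on 205 reads elsewhere. Rbm20 as a whole was at 13.0, 10.8 and 2.97 RPM. Reads per part carry no allele, so the genotype labels could not be checked from them.

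Homozygous was then compared with wild-type muscle. At least 2-fold apart in relative density were 1124 of 3923 members (28.7%), 444 higher (11.3%) and 680 lower (17.3%) in the homozygous library. Among 74891 parts of other lengths the share was 10.5%, with 4.61% higher and 5.86% lower. In heterozygous against wild type, 456 members were higher (11.6%) and 673 lower (17.2%), together 28.8%, against 10.2% of other parts (4.26% higher and 5.97% lower). In homozygous against heterozygous, 545 were higher (13.9%) and 579 lower (14.8%), together 28.7%, against 10% of other parts (5.22% higher and 4.8% lower). Comparisons against wild type share that library. By the level of the part in RPM, without its gene as reference, the split was 224 higher and 795 lower in homozygous against wild type, and 288 higher and 816 lower when homozygous was set against heterozygous. In relative density the share apart was nearly the same for all 3 pairs of libraries, and it was larger for long parts than for others in each.

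The median log2 ratio of members was -0.17 for homozygous against wild type, -0.13 for heterozygous against wild type and -0.04 between the knock-in libraries, where other parts had 0.05, 0.02 and 0.02. Both knock-in libraries were thus slightly below wild type at the median over all members. Coding members went the other way, with a median log2 ratio of 0.08 in both comparisons against wild type, where 42 were at least 2-fold higher and 30 lower in homozygous, and 40 higher and 29 lower in heterozygous muscle. Coverage along genes moved with this. Over 2634 genes the median log2 ratio of reads per base in the 3′ stretch to the 5′ stretch, with genes divided into 3, was 0.67, 0.61 and 0.50, and its part in the result was not tested.

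Read depth went with the share of members apart. Depth is here the smaller of the mean reads of the part and of its reference. In homozygous against wild type, 61.0% of the 438 members under 100 reads were at least 2-fold apart, 28.9% of 1593 at 300 to 1000 reads and 3.47% of 288 at 3000 reads or more. Length went with it too. At 300 to 1000 reads the share was 1.27% for parts under 200 bases, 5.12% for 200 to 499 bases, 15.4% for 500 to 999 bases and 28.9% for members. Heterozygous against wild type ended at 2.43% at 3000 reads or more, and homozygous against heterozygous at 1.04%.

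**Figure D2:**
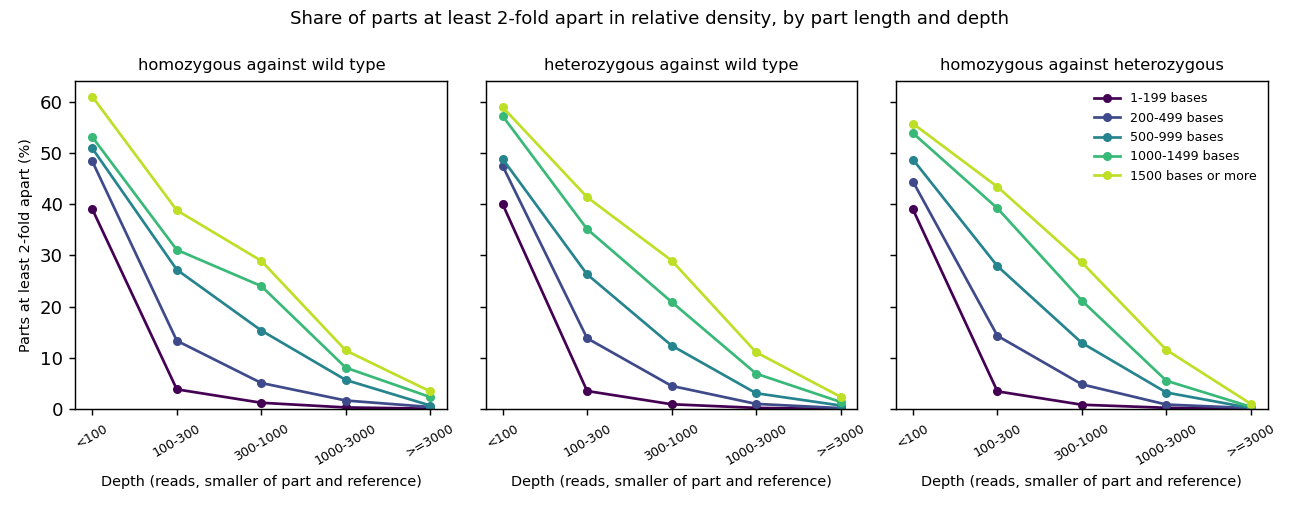
Share of parts (percent) at least 2-fold apart in relative density, by depth in reads (x axis) and part length (lines), for each pair of libraries. In all 3 pairs the share is lower at greater depth and, at a given depth, higher for longer parts.

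**Figure D3:**
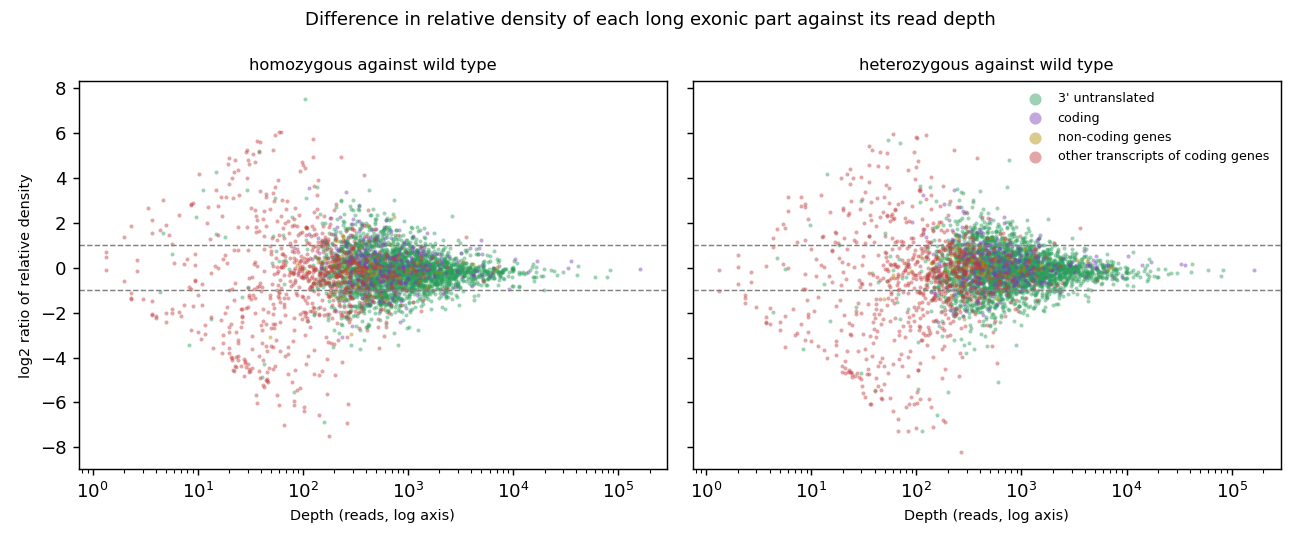
The log2 ratio of relative density of each member with a reference, against its depth in reads (log axis), coloured by class, for homozygous and heterozygous against wild type. Dashed lines mark 2-fold, and the 288 members at 3000 reads or more lie almost all between them.

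The 288 members at 3000 reads or more have the least counting error. Their median log2 ratio was -0.18 (middle range -0.38 to 0.02) in homozygous against wild type, where 4 were at least 2-fold higher and 6 lower. In heterozygous against wild type 2 were higher and 5 lower, and in homozygous against heterozygous 2 were higher and 1 lower. These came from 14 members, 12 of them 3′ untranslated, and those described here were chosen after their values were seen.

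Camk2g codes for the gamma chain of calcium/calmodulin-dependent kinase II. Its last part (chromosome 14, 20734883 to 20736608, GRCm38) held 3425, 3983 and 1849 reads, and the rest of the gene 1773, 4433 and 2985. The relative density was 12.5, 5.81 and 4.01, a log2 ratio of -1.64 (-1.76 to -1.52) in homozygous against wild type. Camk2g as a whole was at 21.7, 31.7 and 22.4 RPM, so the wild-type library carried more of its Camk2g reads in the 3′ untranslated part. Prrc2b, a proline-rich coiled-coil protein gene, had an untranslated part at 6.95, 2.80 and 2.59, with 738 of its 3360 bases in exons of Gm13610. Stat5b, a transcription factor of growth hormone signalling, was at 1.54, 0.557 and 0.642. Its part was at 19.4, 15.1 and 19.1 RPM, and the rest of the gene held 6814, 16277 and 14536 reads. Nampt, the rate-limiting enzyme of NAD salvage, was at 2.22, 1.12 and 0.952. Its part was at 17.4, 21.7 and 17.98 RPM, and the rest of the gene held 2524, 6865 and 5460 reads. In both genes the level of the part was close in homozygous and wild-type muscle. The lower ratio there went with more reads elsewhere in the gene.

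In all 4 genes the relative density was higher in the wild-type library than in both knock-in libraries. A steady fall from wild type through heterozygous to homozygous was seen in Camk2g, Prrc2b and Nampt. It was also seen in Mcur1, which codes for a regulator of mitochondrial calcium uptake, at 0.556, 0.422 and 0.272. Tnks2, a poly-ADP-ribose polymerase (tankyrase), had the opposite order at 1.55, 2.18 and 3.30, with a log2 ratio of 1.09 (1.00 to 1.18) in homozygous against wild type. Tead1, a transcription factor that binds muscle gene promoters, was at 2.09, 5.24 and 4.91, higher in both knock-in libraries, while the gene as a whole was at 53.0, 34.0 and 23.8 RPM.

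In 4 others the heterozygous library stood at an end. The ubiquitin ligase gene Pja2 was at 2.56, 1.09 and 1.51. Amotl1, a regulator of Hippo signalling, was at 10.7, 4.80 and 7.27. Eif2ak1, the haem-regulated kinase of translation factor eIF2, was at 14.5, 8.35 and 23.5, with 487 bases in exons of Aimp2. The phosphatase gene Dusp3 was at 1.30, 2.35 and 1.13, so there the heterozygous library was highest. H2-Q7 belongs to the class I histocompatibility genes, whose near-identical copies make its values (0.671, 2.26 and 1.75) uncertain.

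Naca stood out as a coding member among the 14. The gene codes for a chaperone subunit that binds new proteins at the ribosome, and its 5916-base exon (chromosome 10, 128039171 to 128045086) makes the much larger muscle form skNAC. The exon held 4797, 4906 and 5328 inclusion reads and 797, 994 and 397 exclusion reads. PSI, the percentage of transcripts that hold a part, was 11.5% (10.8 to 12.3), 9.66% (9.08 to 10.3) and 22.5% (20.8 to 24.4). The homozygous library was higher than wild type by 11 points (9.09 to 13.0). Relative density gave the same order between homozygous and the other libraries at 0.0541, 0.0615 and 0.126. Naca as a whole was at 154, 128 and 96.1 RPM, while the exon itself was at 20, 18.5 and 24.7 RPM.

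**Figure D4:**
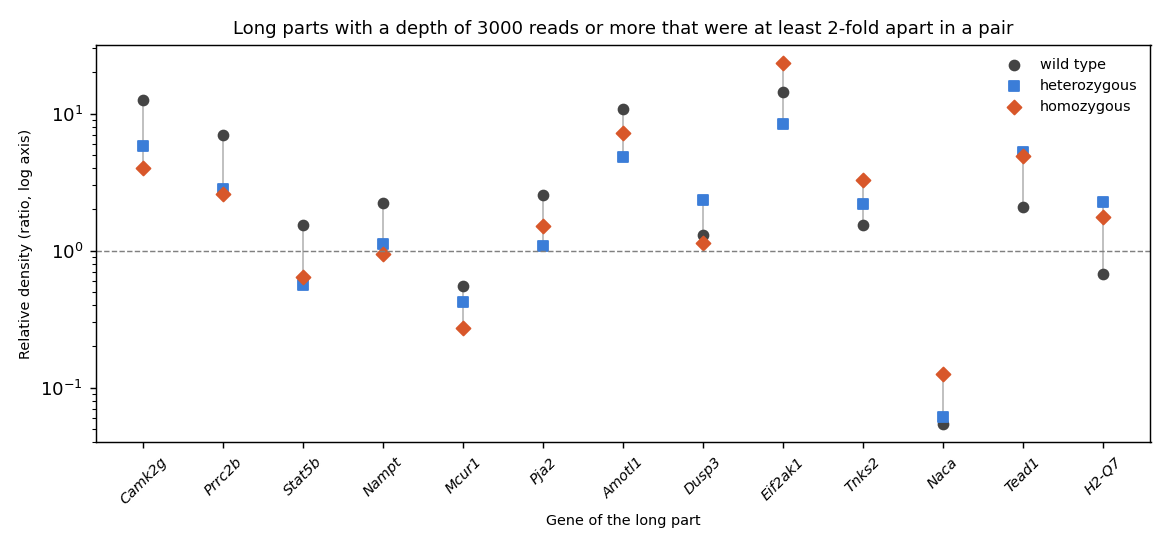
Relative density (ratio, log axis) in each library of members named in the text with a depth of 3000 reads or more that were at least 2-fold apart in a pair, ordered by the homozygous against wild-type ratio. The homozygous point is the lowest of the 3 for Camk2g and the highest for Naca and Tnks2.

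Several long coding exons with many reads belonged to muscle scaffolds, below the mitochondrial members named above. Cmya5 codes for myospryn, a protein of the sarcomere's outer rim, and its 9310-base exon held 29534, 37451 and 32806 reads. Its relative density was 0.392, 0.432 and 0.388, so the libraries lay close together. The 8555-base exon of Xirp2, a Xin actin-binding protein, was at 119.7, 141 and 189 RPM, and at 0.487, 0.524 and 0.605 in relative density. The level of Xirp2 differed more between libraries than the place of its long exon within the gene.

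Ahnak, a giant scaffold under the cell membrane, behaved otherwise. Its 16910-base exon (chromosome 19, 9002287 to 9019196) was at 105, 128 and 57.6 RPM. Relative density was 0.989, 0.730 and 0.515, which misses 2-fold at a log2 ratio of -0.94 (-1.0 to -0.88). PSI was 59.0% (54.9 to 63.0), 38.2% (36.0 to 40.5) and 23% (21.1 to 25), lower at each step. It rested on 135, 420 and 320 exclusion reads. At the median length of members 1 exclusion read weighs as much as 19.4 inclusion reads, and at the length of Ahnak it weighs more.

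Some other coding exons had fewer reads. Synpo2l, an actin-binding protein of the Z-disc, had 3716, 4714 and 6193 reads in its coding exon and a relative density of 0.617, 0.791 and 1.14. Hrc, which binds calcium in the sarcoplasmic reticulum, was at 0.597, 0.721 and 0.731. The last coding exon of Scn4a, the muscle sodium channel, was at 8.45, 7.87 and 13.0. Dst, a linker of cytoskeletal filaments, had a coding exon with 15, 152 and 176 reads (relative density 0.0151, 0.140 and 0.178), and another at 0.917, 0.212 and 0.296, so exons of 1 gene went in opposite directions. Irs2, an adaptor of the insulin receptor, has a coding and an untranslated member that serve as each other's main reference, and its coding member was at 2.15, 8.49 and 2.15.

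A list of genes with long coding exons in muscle and cytoskeleton, which holds Cmya5, Xirp2, Ahnak, Synpo2l and Dst, had 44 members in 24 genes, untranslated parts included. Of these, 5 were at least 2-fold higher and 7 lower in homozygous against wild type (27.3%), close to the share over all members.

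Among untranslated members of sarcomere and Z-disc genes, Ldb3 codes for a Z-disc protein whose splicing RBM20 is known to direct in heart. A 3′ untranslated part of Ldb3 (chromosome 14, 34526725 to 34529037) held 14805, 10227 and 9544 reads, and its relative density of 0.265, 0.149 and 0.144 was lower in both knock-in libraries, short of 2-fold. Klhl31, a kelch protein needed for muscle structure in mouse, had the highest level among members of the ubiquitin and atrophy list, at 227, 164 and 230 RPM. Its relative density was 1.03, 0.779 and 0.795. The intermediate filament gene Des was at 0.844, 0.652 and 0.639. Synpo2 had 3 members, of which the 3′ untranslated one of 3740 bases held 611, 198 and 103 reads, while that of 3007 bases held 22916, 22894 and 15303.

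Of 14 members of the sarcomere list with a reference, 0 were at least 2-fold higher and 2 lower in homozygous against wild type (14.3%, where all members gave 28.7%), and 1 was higher and 3 lower in heterozygous against wild type (28.6%, where all members gave 28.8%). The 2 of the first comparison lie in other transcripts, a 1520-base part of Neb, the nebulin gene, with 904, 520 and 349 reads and a 3114-base part of the Z-disc gene Pdlim3 with 2236, 984 and 959.

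Calcium handling and excitation genes gave 0 higher and 7 lower of 33 members in homozygous against wild type (21.2%, under the 28.7% of all members, of which 11.3% were higher and 17.3% lower). The heterozygous library against wild type gave 4 higher and 7 lower (33.3%, where all members gave 28.8%). Camk2g was among them. Jph2, which ties the sarcoplasmic reticulum to the cell membrane, was at 2.12, 1.59 and 1.22, in steady order but short of 2-fold. Members in other transcripts made up several of the rest. A part of the ryanodine receptor gene Ryr1 held 48, 12 and 2 reads beside 188958, 206714 and 188465 elsewhere in the gene, and a part of the calcineurin gene Ppp3ca held 126, 0 and 2. These rest on few reads and on a small share of their genes.

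Insulin signalling and glucose genes had 1 member at least 2-fold higher and 2 lower of 31 in homozygous against wild type (9.68%, where all members gave 28.7%), and 3 higher and 2 lower in heterozygous against wild type (16.1%, where all gave 28.8%). Insr codes for the insulin receptor. Its last part (chromosome 8, 3150922 to 3153460) held 1945, 1805 and 894 reads and had a relative density of 3.87, 2.82 and 1.48, lowest in the homozygous library, with a log2 ratio of -1.39. Igf1r, the receptor of insulin-like growth factor, went the other way at 2.28, 1.78 and 4.66, on only 208 reads elsewhere in the gene in the homozygous library. Pdk4, which shuts down pyruvate dehydrogenase, was at 2.06, 1.45 and 1.17 and at 64.7, 42.3 and 38.5 RPM.

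The list of RBM20 targets known from heart held 39 members in 25 genes, and 6 were higher and 6 lower in homozygous against wild type (30.8%), near the 28.7% of all members. Heterozygous against wild type gave 5 higher and 7 lower (30.8%, where all members gave 28.8%). Between the knock-in libraries the list was uneven, with 11 higher and 3 lower in homozygous against heterozygous (35.9%). All members gave 28.7% there, 13.9% higher and 14.8% lower. The triadin gene Trdn, whose protein anchors calsequestrin, had an untranslated member at 0.0786, 0.119 and 0.130. Mlip had a part in another transcript with 105, 1 and 2 reads. Splicing regulators gave 3 higher and 6 lower of 38 in homozygous against wild type (23.7%, under 28.7%), and 4 higher and 10 lower in heterozygous against wild type (36.8%, over 28.8%). Rbfox1, a splicing factor of muscle and brain, was at 0.641, 0.482 and 0.266, and the helicase gene Ddx17 at 7.30, 2.87 and 3.71.

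Muscle transcription regulators gave 5 higher and 9 lower of 44 in homozygous against wild type (31.8%, where all members gave 28.7%). They gave 7 higher and 12 lower in heterozygous against wild type (43.2%, where all members gave 28.8%). Ubiquitin and atrophy genes gave 1 higher and 3 lower of 24 (16.7%) in the first comparison and 1 higher and 2 lower (12.5%) in the second. The ubiquitin and atrophy list thus lay under the shares of all members in both comparisons. Poly(A) factors gave 1 higher and 2 lower of 15 (20%), then 0 higher and 4 lower (26.7%, near the 28.8% of all members). In homozygous against heterozygous, poly(A) factors gave 5 higher and 0 lower (33.3%, where all members gave 28.7%). Of the long non-coding RNA list only Kcnq1ot1 and 2900097C17Rik were members, and the second, at 5.50, 4.46 and 2.51, was the lower one of 1 with a reference.

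The members furthest apart were mostly in other transcripts, with few reads. By the counting bound nearest no difference, the first in homozygous against wild type was a 3′ untranslated part of Rhoj, a small GTPase of endothelium (chromosome 12, 75395818 to 75397956). It held 1, 2 and 312 reads beside 8821, 12661 and 5014 elsewhere in the gene. The homozygous library alone covered it, at a relative density of 0.159. Armt1, a carboxyl methyltransferase gene, had a 3′ untranslated part with 276, 199 and 1 reads, missing in the homozygous library. The other 18 of the 20 genes so ranked lay in other transcripts, among them Fkbp3 (529, 6 and 0 reads), Tacc2 (450, 336 and 2) and Lpin1 (296, 14 and 0) on the low side. On the high side were Itfg1 (0, 4 and 181), Txndc9 (0, 198 and 176) and Got2 (8, 404 and 279).

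In heterozygous against wild type, the first on the high side was an 8703-base 3′ untranslated part of Zfp318, with 252, 1692 and 360 reads and a relative density of 0.115, 3.22 and 0.367. Rsu1 was furthest on the low side, with 595, 0 and 210 reads in a retained intron. Over all members of other transcripts, retained introns and the rest, about as many were apart in each pair. The shares were 51.1% for homozygous against wild type, 51.5% for heterozygous against wild type and 51.3% between the knock-in libraries. Among 3′ untranslated members they were 22.5%, 22.8% and 22.6%. In homozygous against heterozygous, Vim, the vimentin gene, ranked second on the high side, at 116, 2 and 205 reads in a retained intron beside 57206, 84776 and 29244 elsewhere.

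Where a long untranslated part touches another part of its gene, the ratio of their densities compares a farther with a nearer stretch of the same transcript end. In some genes, such as Zfp445, the touching part is itself coding. The ratio could be formed for 793 members, 785 of them 3′ untranslated, with touching parts of a median of 324 bases. The median ratio was 0.467, 0.439 and 0.411, and it was under 0.5 in 417, 421 and 442 members. The long farther part was thus covered at less than the level of the part before it in most genes.

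The ratio was at least 2-fold higher in 44 members (5.55%) and lower in 94 (11.9%) in homozygous against wild type, together 17.4%, where 11.4% of other touching parts were apart (4.55% higher and 6.82% lower). In heterozygous against wild type it was higher in 49 (6.18%) and lower in 81 (10.2%), together 16.4%, against 11.1% of others (4.16% higher and 6.92% lower). In homozygous against heterozygous it was higher in 61 (7.69%) and lower in 70 (8.83%), together 16.5%, against 10.7% (5.47% higher and 5.23% lower). Other parts were set against the part before them by genome position, whatever the strand of the gene. Their split into higher and lower is thus not directed along the gene as that of members is, and only the joint shares compare directly.

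Igf1 codes for an insulin-like growth factor. Its 5241-base end part (chromosome 10, 87931802 to 87937042) held 2598, 5071 and 2918 reads and the 902 bases before it 634, 745 and 231. The ratio was 0.788, 1.31 and 2.43, a log2 ratio of 1.62 (1.39 to 1.85) in homozygous against wild type. Tgfbr2, a receptor of transforming growth factor beta, had 0.842, 1.12 and 2.55, the same order. Sel1l, an adaptor of protein degradation at the endoplasmic reticulum, was at 1.23, 0.999 and 4.26, so there the homozygous library alone was high.

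The opposite order was seen in Rxra, the retinoid X receptor gene, at 15.5, 3.15 and 2.05. Its wild-type value rests on 136 reads in the touching part, against 1074 and 1426 in the other libraries, while the long part held 2574, 4146 and 3581. Zfp445, a zinc finger gene, was at 6.22, 3.54 and 1.12. The heterozygous library was at an end in Cxcl12, a chemokine gene (3.10, 11 and 1.76), and in Cbx5, which codes for the heterochromatin protein HP1 alpha (4.81, 0.882 and 2.14).

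**Figure D5:**
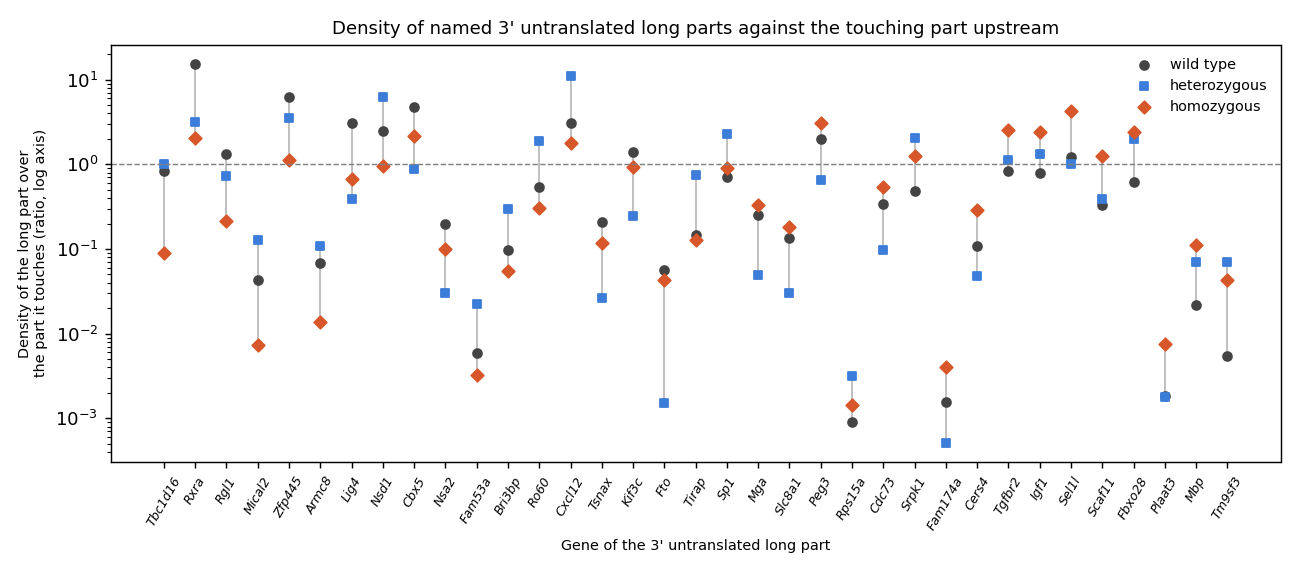
Density of named 3′ untranslated members divided by that of the touching part upstream (ratio, log axis) in each library, for the members with reads in all 3 libraries, ordered by the homozygous against wild-type ratio. The homozygous point is the highest of the 3 for Igf1, Tgfbr2 and Sel1l, and the wild-type point for Rxra and Zfp445.

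PSI says little about most long parts, because 3824 of 5219 members (73.3%) had 0 exclusion reads in every library, against 60.2% of other parts. PSI was 100% in 3579, 3562 and 3578 members and under 50% in 1115, 1125 and 1113. At least 20 points apart in homozygous against wild type were 188 members (3.6%), 78 higher (1.49%) and 110 lower (2.11%), against 1.86% of other parts (0.896% higher and 0.961% lower). In heterozygous against wild type there were 68 higher (1.3%) and 111 lower (2.13%), together 3.43%, against 1.86% (0.778% higher and 1.08% lower). In homozygous against heterozygous there were 93 higher (1.78%) and 85 lower (1.63%), together 3.41%, against 1.93% (1.11% higher and 0.821% lower).

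The largest PSI differences went with exclusion reads that were unevenly spread over the libraries. Hfe codes for a regulator of iron uptake, and its 2352-base part (chromosome 13, 23702034 to 23704385) held 2859, 1978 and 1554 inclusion reads and 2, 901 and 41 exclusion reads. PSI was 98.7%, 10.4% and 66.7%, so the heterozygous library stood lowest, and relative density differed little at 0.518, 0.450 and 0.391. H2bc9, a histone gene, had 0, 671 and 0 exclusion reads and a PSI of 100%, 10.9% and 100%, with near-identical family members that make it uncertain. Gm14295, Gm14440, Gm4631 and Zfp966 on chromosome 2 share between 12.5% and 100% of the 50-base runs sampled from them with other genes, and their values are uncertain for the same reason.

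Retained introns among the largest PSI differences included parts of Rbm4b and Uso1. Rbm4b, an RNA-binding protein gene, was at 100%, 28.6% and 27.4%, on 0, 26 and 30 exclusion reads. Uso1, a vesicle-tethering protein gene, was at 94.9%, 25.8% and 77.4%, on 2, 75 and 4 exclusion reads. In Itpkb, an inositol trisphosphate kinase gene, a part in another transcript was at 86.5%, 95.3% and 20%, on 3, 2 and 13 exclusion reads. A coding part of Gnas, the gene of the stimulatory G protein alpha subunit, was at 6.0%, 7.92% and 100%, where the homozygous library had 0 exclusion reads and 108 inclusion reads. The rest of Gnas held 293725, 397226 and 306355 reads, and the relative density of the part was 0.00124, 0.00137 and 0.00226. A PSI of 100% there does not mean that most Gnas transcripts hold the part.

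Levels of cell type markers also differed between the libraries. The 15 skeletal muscle markers, all detected, summed to 197611, 184927 and 240587 RPM. Slow fibre markers summed to 2326, 897 and 135 RPM, with 8 of 9 at least 2-fold lower in homozygous against wild type, and fat cell markers to 8321, 11089 and 3884 RPM, with 6 of 10 lower. Tendon and fibroblast markers summed to 1401, 1908 and 874 RPM, although 2 of 9 were at least 2-fold higher and 0 lower in homozygous against wild type, with a median log2 ratio of 0.30. Those of nerve and Schwann cells summed to 123, 153 and 45.3 RPM, with 5 of 7 lower. Heart markers summed to 42.9, 17.1 and 16.0 RPM, with 2 of 7 at 0 in each library. In bulk RNA fewer cells of a type and less RNA per cell cannot be told apart, and the part of cell makeup in the levels above was not tested.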

How the data were processed

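The authors deposited 1 table of exonic parts that gives raw inclusion and exclusion counts, the PSI as a fraction and its difference from wild type, per the file headers. Total inclusion reads (wild type, heterozygous, homozygous) were 239837797, 265358773 and 215923385. Totals of exclusion reads were 53925304, 58640621 and 51998453. Library preparation used SMART-seq v4 for low input, then Nextera XT, per the labels' protocols. The submitters' processing notes list TopHat2 2.0.14, Bowtie 1.1.1, Trimmomatic 0.32 and cutadapt 1.1, with GRCm38 as build. For the program that counted parts, its strand setting and its annotation release, nothing was given in the sources used here. Other ages named in the labels were not analysed here.

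PSI was recomputed as inclusion reads over the effective length (part length plus the exclusion length), divided by that value plus exclusion reads over the exclusion length, and matched the deposited fraction within 5e-07. Relative density divides a part's inclusion reads per base of effective length by those of the gene's other parts. The 95% interval of a log2 ratio takes the 4 read counts as Poisson; that of a PSI is Wilson's and that of a PSI difference Newcombe's. Counts under 3 were set to 3 for log2 ratios, and no log2 ratio was formed where both counts of the part were 3 or fewer. A member was called apart at 2-fold in relative density or 20 points of PSI, with no test. Classes, transcript ends and sequences come from GENCODE M21, in which 5214 members have their gene.

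Named genes are, per pair, the 10 highest and 10 lowest members by the counting bound nearest no difference and the 10 with the largest PSI difference, the 10 longest and 10 most abundant members, up to 4 per gene list, and Rbm20; other list members and the 14 well covered members that stood apart were chosen after their values were seen. The members, lists and rules were chosen with earlier results of these data known. The steps were tested on simulated data. Figures were drawn with matplotlib 3.10.9, and values computed in Python 3.11.15 with scipy 1.17.1, pandas 2.3.3 and numpy 2.4.6. Some members that met these rules are not reported here.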

Additional observations from a re-analysis of the deposited data

How the results depend on the processing

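The median relative density moved from under 1 to over 1 with 500 reads in each library. Homozygous against heterozygous had more lower than higher members as reported, and more higher than lower with a fold of 4, and when centred on the median of the members (572 and 546). Counts are given as higher and lower, first for homozygous against wild type, next for heterozygous against wild type, last for homozygous against heterozygous, where they differed by over 1.5 times from those reported. With a fold of 1.5, relative density gave 740 and 1166, 795 and 1112, and 871 and 980, and the touching-part ratio 95 and 202, 108 and 182, and 119 and 161. With a fold of 4, relative density gave 133 and 217, 137 and 235, and 196 and 186. With 500 reads in each library it gave 123 and 212, 113 and 213, and 157 and 157, and PSI gave 15 and 17, 11 and 21, and 18 and 11, while the median relative densities were 1.34, 1.26 and 1.24. From 3000 bases, relative density gave 130 and 196, 133 and 191, and 145 and 170, and PSI 25 and 31, 21 and 25, and 27 and 24; both sets hold fewer members by construction. From 1000 bases, relative density gave 1051 and 1039 lower against wild type, with 847 higher in homozygous against heterozygous, and PSI 119 higher, 180 lower and 152 higher. With 3′ untranslated members only, an alternative chosen after seeing the data, relative density gave 237 and 366, 254 and 357, and 283 and 323. With a relative density of 0.2 or more in 1 of the 2 libraries, also chosen after seeing the data, 439 and 441 were lower against wild type, with 360 higher in homozygous against heterozygous. With levels in RPM, 224 were higher and 795 lower in homozygous against wild type, and 288 higher and 816 lower when set against heterozygous. With 10 points, PSI gave 130 and 207, 112 and 204, and 167 and 148. With 30 points, 72 were lower in homozygous against wild type, and 34 higher and 66 lower in heterozygous against wild type. With the plain length, the median relative densities were 0.580, 0.543 and 0.517. With touching parts of 200 bases or more, 62 were lower in homozygous against wild type. The share of members apart was lower at greater depth, so members with few reads are the less certain ones. No paired analysis was possible because each genotype has 1 library.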
